A study of Mus musculus with 8 samples.

Results

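The mesenchymal stromal cells of mouse bone marrow described here are 197 of 22078 cells that passed a quality filter in 4 single-cell RNA libraries. They were chosen by their own RNA: a cell was kept when at least 4 of 9 stromal genes (Cxcl12, Lepr, Col1a1, Col1a2, Col3a1, Dcn, Pdgfrb, Igfbp5 and Lpl) each had 1 or more unique molecular identifiers (UMIs, counted RNA molecules). These 9 genes therefore define the cells and are given below as a description. Cells passed the filter if they had 500 or more genes, 1000 or more UMIs, and mitochondrial genes below 10% of their UMIs.

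Mesenchymal stromal cells are the non-blood scaffold of the marrow. Those that carry the leptin receptor (Lepr) and secrete the chemokine Cxcl12, also called CAR cells, hold blood stem cells in the marrow and supply them with stem cell factor (Kitl). They include progenitors of fat and bone cells, and in myelofibrosis, the scarring seen in blood cancers driven by the JAK2V617F mutation, stromal cells lay down excess matrix. Gli1 is a transcription factor of the hedgehog pathway, and the series asked what Gli1 in the blood cells does in JAK2V617F-driven myelofibrosis.

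Each library was made from the marrow of 3 pooled mice, so each group was 1 sample and nothing below could be tested between groups. Marrow of 8-week-old donors, wild type or Gli1 knockout, was harvested 48 hours before transplantation, transduced with a retrovirus carrying JAK2WT or JAK2V617F, and given to female B6.SJL recipients aged 8 to 10 weeks that had received 10.5 Gy. Marrow was collected 112 days later, depleted of lineage-positive cells, and sorted as viable lineage-negative cells with and without GFP. The genotype and the virus belong to the transplanted blood cells, and the labels give no Gli1 deletion for the recipients. The 4 libraries were wild type JAK2WT, wild type JAK2V617F, knockout JAK2WT and knockout JAK2V617F, and lists of 4 values keep this order. Intervals are 95% intervals for counting error only and leave out all differences between mice. Those of gene levels and gene ratios treat each UMI as independent, so they also leave out differences between cells.

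The stromal cells were shallower than the cells around them. Their median UMI count was 3205, 3258, 5526 and 5011 per cell, against 4202, 13361, 17665 and 13892 in the other 21881 cells. In all they held 189418, 207304, 407188 and 285505 UMIs. Between 11 and 33 cell barcodes were shared by any 2 libraries. No doublet caller was run, and 25 of the 197 cells carried a UMI of Ptprc, the pan-blood surface protein CD45.

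Few cells stood near the edge of the rule. Of the cells that passed, 18621 had none of the 9 genes, 3104 had 1, 141 had 2 and 15 had 3. Within the rule, 34 cells had 4 of the genes, 42 had 5, 37 had 6, 37 had 7, 35 had 8 and 12 had all 9. The 15 cells just outside had a median of 4 UMIs of the 9 genes, and the 34 just inside had a median of 42. Of 40 other stromal markers, the cells just outside had a median of 6 detected and those just inside 9.5. Ptprc was found in 5 of the 15 and in 5 of the 34.

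Stromal cells made up 0.513% (41 of 7987; exact Clopper-Pearson interval 0.369 to 0.696), 1.36% (49 of 3602; 1.01 to 1.79), 1.55% (62 of 3999; 1.19 to 1.98) and 0.693% (45 of 6490; 0.506 to 0.927) of the cells that passed. The share was 2.65 times as high with JAK2V617F as with JAK2WT after wild type transplants (log-normal interval 1.75 to 4.00) and 0.447 times as high after knockout transplants (0.305 to 0.655). Between genotypes, the knockout share was 3.02 times the wild type share with JAK2WT (2.04 to 4.47) and 0.510 times with JAK2V617F (0.341 to 0.762). The low libraries were thus wild type JAK2WT and knockout JAK2V617F. The share is relative to blood cells of the same sort, and how much of each sorted population went into a library is not given in the sources used here, so more stromal cells and fewer loaded blood cells cannot be told apart. With cells of at least 3000 UMIs thinned to that depth, the shares were 0.459%, 0.887%, 1.62% and 0.557%.

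**Figure D1:**
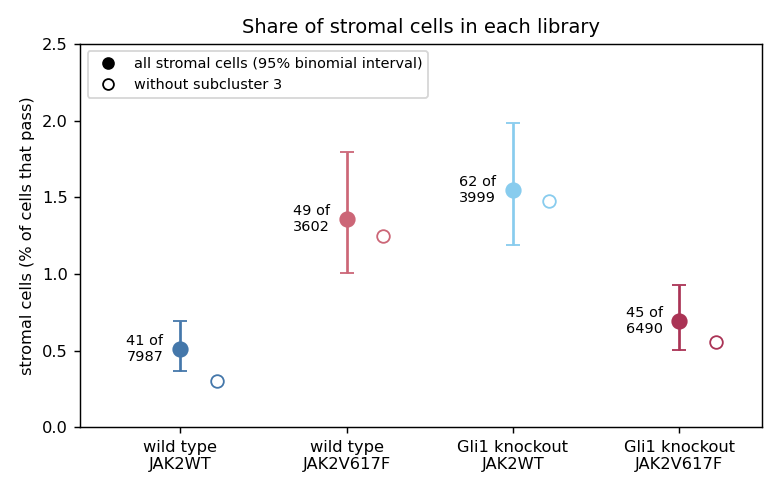
Stromal cells as a percent of cells that passed the filter in each of the 4 libraries. Filled points are shares with exact 95% binomial intervals (0.513%, 1.36%, 1.55% and 0.693%), and open points leave out subcluster 3, the cells led by blood and mitosis genes. The wild type JAK2V617F and knockout JAK2WT libraries sit above the other two.

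The wild type JAK2WT share rested in part on cells led by blood cell and mitosis genes. These cells formed subcluster 3, described below, and held 17, 4, 3 and 9 of the stromal cells. Without them the shares were 0.300%, 1.25%, 1.48% and 0.555%. The JAK2V617F over JAK2WT ratio in wild type was then 4.16, and the knockout over wild type ratio with JAK2WT was 4.91.

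In the knockout libraries the stromal cells carried sex-linked RNA of female cells, as the recipients were, and most other cells that of male cells. Xist, the RNA that silences an X chromosome in female cells, was detected in 60 of 62 stromal cells (96.8%) of the knockout JAK2WT library and in 38 of 45 (84.4%) of the knockout JAK2V617F library. In the other cells of these libraries it was detected in 1.63% and 0.419%. RNA of at least 1 of 4 Y-linked genes (Ddx3y, Eif2s3y, Kdm5d and Uty) was found in 70.7% and 72.3% of those other cells. It was found in 3 and 13 of the stromal cells, and 2 stromal cells carried Y-linked RNA without Xist. Of the 16 stromal cells with Y-linked RNA, 8 were in subcluster 3. Both wild type libraries had Xist in about the same share of stromal cells (92.7% and 93.9%) and other cells (90.6% and 90.3%), so origin could not be read there. GFP, the retroviral marker, gave 0, 1, 0 and 0 UMIs in the stromal cells. Among the other cells at most 2.73% of a library carried it.

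**Figure D2:**
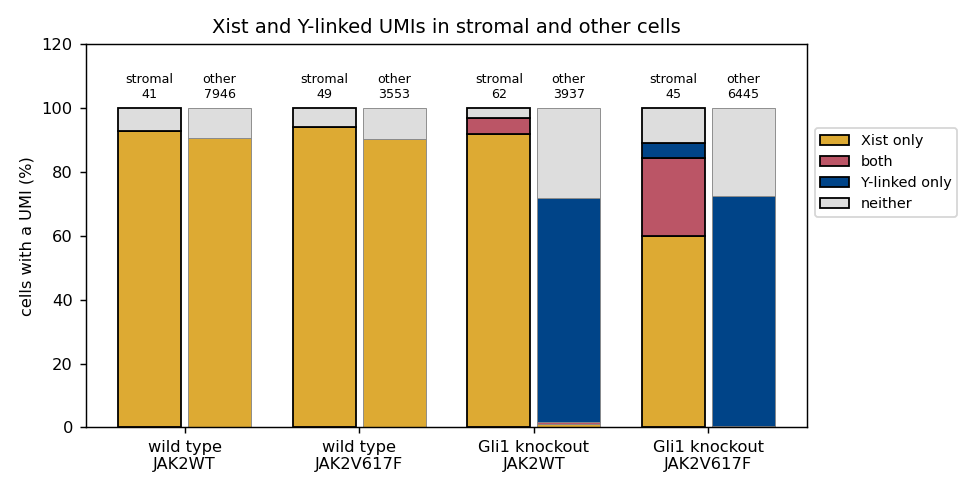
Percent of cells with a UMI of Xist only, of a Y-linked gene only, of both or of neither, for stromal cells (black outline) and all other cells that passed, with cell numbers above the bars. In the knockout libraries Xist marks 96.8% and 84.4% of stromal cells but 1.63% and 0.419% of the others.

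Gli1 itself was almost absent from these libraries. The stromal cells held 0, 1, 5 and 5 Gli1 UMIs, in 0, 1, 4 and 3 cells, and all 8 of these cells carried Xist. Of the 3 in the knockout JAK2V617F library, 2 also carried Y-linked RNA. The other cells held 0, 1, 0 and 0, so the counts could not check the knockout label in blood cells. Of the 11 Gli1 UMIs, 8 fell in subcluster 2.

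Among genes at least 10-fold above the other cells, the most abundant included Cxcl12 and genes of matrix, carrier and growth-factor-binding proteins. The libraries count each RNA once, near its 3′ end, so levels are not divided by gene length. Over all 197 cells, Cxcl12 (chr6:117168535-117181367, mm10) stood at 6978 CPM (counts per 1000000 UMIs), against 1.04 in the other cells. Osteopontin, the bone matrix protein encoded by Spp1 (chr5:104435118-104441050), stood at 5397 CPM against 7.76. The collagen-binding proteoglycan decorin (Dcn) stood at 5264 CPM, and matrix Gla protein (Mgp), which restrains mineral deposition, at 3719 CPM. Among genes at least 10-fold higher than in the other cells, the next by level were Igfbp5 at 3694 CPM, Hp at 3671 and Gsn at 3589. Sparc and the complement inhibitor gene Serping1 had a UMI in 90.9% and 91.4% of the cells though neither was used to choose them. Cxcl12 had a UMI in 73.2%, 69.4%, 82.3% and 73.3% of the stromal cells and in 1.52%, 0.225%, 2.74% and 1.02% of the deeper other cells. Thinned to 2000 UMIs, these stromal shares were 62.1%, 58.9%, 76.5% and 68.4%.

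The summed level of 14 fibroblast markers was 15528 CPM against 855 in the other cells, of 15 markers of adipo-lineage CAR cells 17563 against 469, and of 15 osteo-lineage markers 9241 against 60.8. The endothelial list summed to 61.5 CPM with Kdr at 0. The pericyte and smooth muscle list summed to 167 CPM with Myh11 and Kcnj8 at 0. Pan-blood markers, all 10 of them at 10 CPM or more over the pooled stromal cells, summed to 2650, 1085, 594 and 1324 CPM and were thus highest in the wild type JAK2WT library. Markers of lymphoid and plasma cells summed to 4255, 338, 3085 and 578 CPM and markers of neutrophils and their granules to 3970, 1466, 3672 and 5517 CPM, so blood cell RNA was present in every library. The part of such blood RNA in the results below was not tested, other than by leaving out subcluster 3 or the cells with Ptprc.

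Clustering split the 197 cells into 6 subclusters. Subcluster 0 (52 cells) was adipo-lineage CAR cell-like: Cxcl12 stood at 19503 CPM, Lpl at 3525, Adipoq at 1962 and Kitl at 1477. Subcluster 4 (45 cells) was osteo-lineage-like, with Spp1 at 27309 CPM, Ibsp (bone sialoprotein) at 7366 and Mmp13 (a collagenase of bone and cartilage) at 7241. It kept Cxcl12 in 100% of its cells, at 8911 CPM. Subcluster 1 (25 cells) was fibroblast-like, with Pi16 at 5467 CPM, Ly6a at 3455 and Cxcl12 at only 30.7. These values define the subclusters and are no comparison.

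The remaining 3 subclusters were left unnamed. Subcluster 2 (30 cells) had Dcn at 24552 CPM and was led by Sparcl1, Apod, Cilp, Thbs4 and Lum. Subcluster 5 (12 cells) was led by Crabp2, Slc47a1, Fam180a and Ptn, and held 0, 3, 3 and 6 cells of the libraries. Subcluster 3 (33 cells) was led by Mki67, Cenpf, Hist1h1b, Cpa3 and Myb, genes of dividing and of blood progenitor cells. Ptprc was found in 13 of its 33 cells and ribosomal protein genes made up 23.1% of its UMIs, against 7.95% in subcluster 0.

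The 2 subclusters richest in Cxcl12 split along the transduced allele. Subcluster 0 held 14, 0, 38 and 0 cells of the libraries and subcluster 4 held 1, 20, 1 and 23. The fibroblast-like subcluster held 6, 7, 7 and 5 and subcluster 2 held 3, 15, 10 and 2. Their sizes were not compared as cell types, since the genes that separate them are those that differed between libraries. At clustering resolutions of 0.4 and 1.2 the cells fell into 6 and 8 subclusters, with adjusted Rand indices of 0.921 and 0.805 against the division used here.

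**Figure D3:**
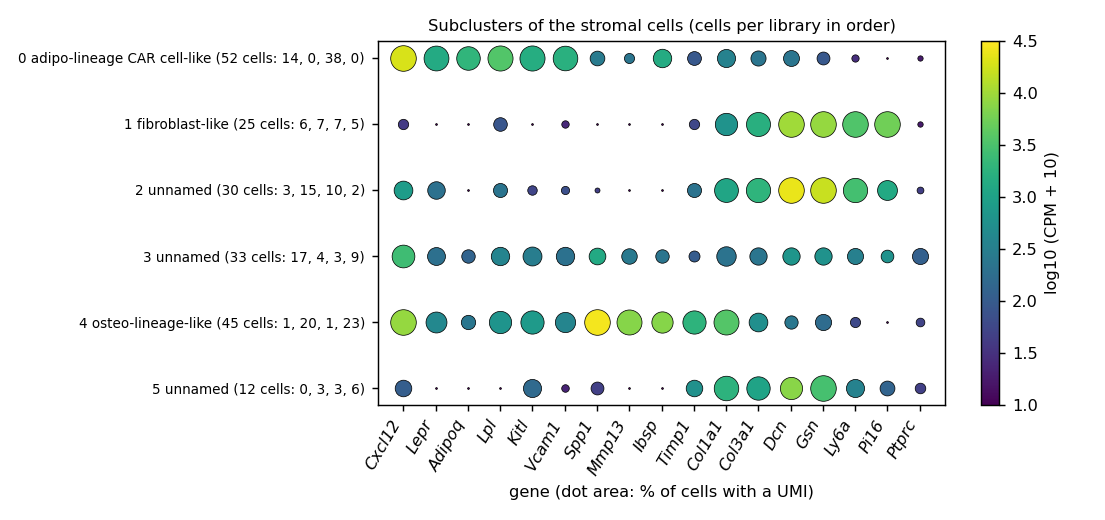
Level (colour, log10 of CPM + 10) and share of cells with a UMI (dot area) of 17 genes in the 6 subclusters, with the cells of each library in the order wild type JAK2WT, wild type JAK2V617F, knockout JAK2WT, knockout JAK2V617F. Cxcl12 is high in subclusters 0 and 4, with Adipoq and Lpl highest in subcluster 0 and Spp1 and Mmp13 in subcluster 4.

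With JAK2V617F in the blood, the stromal RNA held less RNA of several CAR cell markers and more of Spp1 and Mmp13, after both wild type and knockout transplants. Counts were summed over the stromal cells of a library, a gene was measured with at least 50 CPM in the higher library, and it was counted as higher or lower at 2-fold or more, each value taken as CPM + 10. The wild type pair had 4273 measured genes, 11.2% of them higher and 8.57% lower with JAK2V617F, and a median log2 ratio of 0.01. The knockout pair had 4252, 4.84% of them higher and 6.0% lower, and a median of 0.05. The 2 pairs share no library.

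Several adipo-lineage CAR markers were lower with JAK2V617F. Of 14 measured in the wild type pair 6 were lower and 0 higher, with a median log2 ratio of -0.98. Of 15 in the knockout pair 9 were lower and 0 higher, with a median of -1.23. Of these markers Cxcl12, Lepr and Lpl also belong to the rule. Without those 3 genes, 4 of 11 were lower and 0 higher in the wild type pair (median -0.96), and 6 of 12 were lower and 0 higher in the knockout pair (median -1.05). Hp, the plasma protein haptoglobin, stood at 2080, 3242, 3360 and 5482 CPM, higher with JAK2V617F by under 2-fold in each pair. Apoe had a log2 ratio of 0.05 in the wild type pair. With subcluster 3 left out, Hp had log2 ratios of -0.19 in the wild type pair and 0.80 in the knockout pair. The increase of Hp in the wild type pair thus depended on that subcluster. Apoe then had -0.56 in the wild type pair.

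Cxcl12 stood at 5343, 2682, 11405 and 4869 CPM. Both JAK2V617F libraries were below the JAK2WT library of the same genotype; since Cxcl12, Lepr and Lpl helped choose the cells, their levels are a description. Lepr stood at 449, 159, 747 and 273 CPM. Lpl, a lipase that frees fatty acids and a mark of the fat lineage, stood at 1230, 241, 1918 and 389 CPM. For both genes the 2 JAK2V617F libraries were the lowest.

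Adipoq, the fat-cell hormone adiponectin that also marks CAR cells, was not part of the rule. It stood at 359, 57.9, 1140 and 126 CPM, from 68, 12, 464 and 36 UMIs. The JAK2V617F over JAK2WT ratios were 0.161 (exact conditional interval 0.0794 to 0.300) and 0.111 (0.0765 to 0.155). Adipoq was found in 36.6%, 12.2%, 56.5% and 24.4% of the stromal cells and in at most 0.254% of the other cells of any library. Thinned to 2000 UMIs the stromal shares were 33.7%, 7.23%, 53.5% and 17.2%, so the order of the libraries stayed as it was.

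Chrdl1, a secreted antagonist of bone morphogenetic proteins (BMPs), had the lowest ratio of the genes named for the wild type pair. It stood at 396, 4.82, 518 and 45.5 CPM, from 75, 1, 211 and 13 UMIs, and its ratio was 0.0122 in wild type (0.000304 to 0.0700) and 0.0879 in the knockout (0.0460 to 0.154). Esm1, a secreted proteoglycan, stood at 391, 48.2, 818 and 73.6 CPM. Grem1, another BMP antagonist, stood at 111, 43.4, 187 and 14.0 CPM, and Rspo2, which strengthens Wnt signals, at 111, 14.5, 182 and 14.0 CPM. All 4 genes were lowest in the JAK2V617F libraries. The taurine carrier Slc6a6 (log2 ratio -1.95) and the inositol carrier Slc5a3 (-1.89) completed the 6 lowest of the wild type pair, and Wdr86 (-2.47) those of the knockout pair.

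Of 20 factors by which stromal cells act on blood cells, 14 were measured in the wild type pair, with 5 lower and 2 higher and a median of -0.98. In the knockout pair 17 were measured, with 10 lower and 2 higher and a median of -1.23. This list holds the rule gene Cxcl12. Leaving it out, 5 of 13 were lower and 2 higher in the wild type pair (median -0.98). In the knockout pair 9 of 16 were then lower and 2 higher (median -1.28). Several genes, such as Cxcl12, Kitl and Vcam1, are on both this list and the CAR list. Kitl stood at 639, 294, 813 and 406 CPM and the adhesion molecule Vcam1 at 502, 135, 943 and 217 CPM. The AXL-family ligand Gas6 stood at 892, 487, 1474 and 266 CPM. The 2 higher genes were the same in both pairs, Spp1 and Ptn, and Ptn came from 3, 18, 13 and 33 UMIs. Ptn stood at 714 CPM in subcluster 5, against 7.95 in the other stromal cells. That subcluster had 0, 3, 3 and 6 cells of the libraries, so the Ptn levels rest mostly on few cells. Il7, needed by lymphoid progenitors, rested on 9, 4, 33 and 6 UMIs, and Thpo had none in any library.

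**Figure D4:**
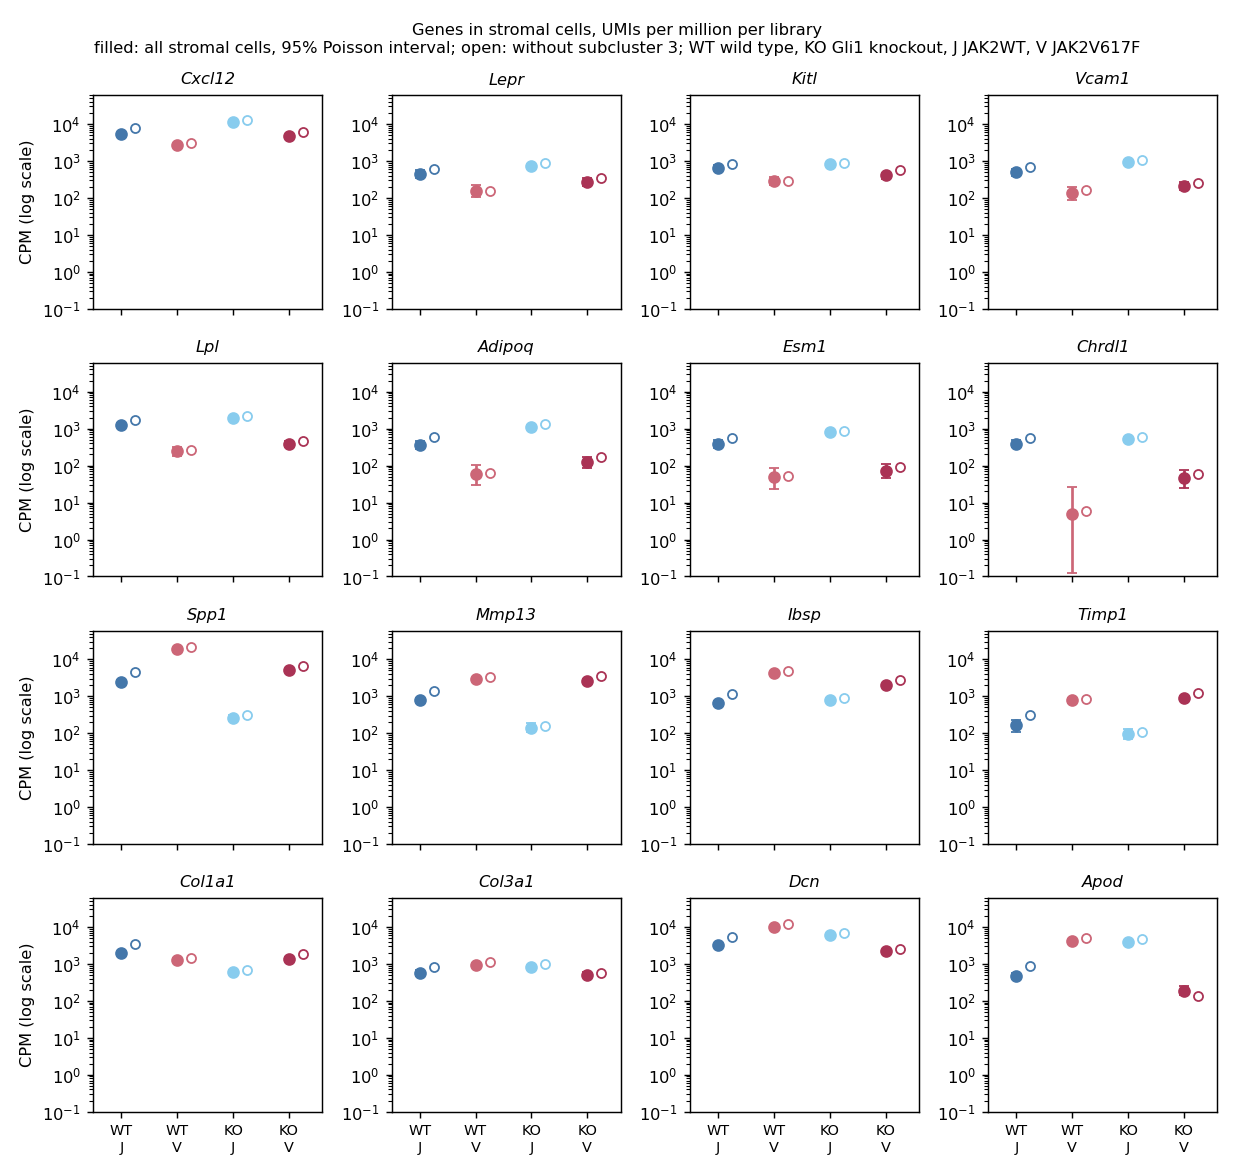
CPM (log scale) of 16 genes in the stromal cells of each library. Filled points are all stromal cells with 95% Poisson intervals and open points leave out subcluster 3. In the top 2 rows the JAK2V617F libraries lie below the JAK2WT libraries of the same genotype, and in the third row above them.

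Spp1 and Mmp13 were higher with JAK2V617F in both pairs. Spp1 stood at 2460, 18577, 265 and 5093 CPM. Single cells carried much of it: 435 of 466 UMIs in the wild type JAK2WT library and 1799 of 3851 in the wild type JAK2V617F library came from 1 cell each. Without the top cell of each library Spp1 stood at 170, 10409, 115 and 4281 CPM, with the 2 JAK2V617F libraries still the highest. Spp1 was found in 19.5%, 51.0%, 22.6% and 73.3% of the stromal cells, against 4.54%, 8.11%, 4.29% and 6.67% of the other cells, and in 16.1%, 42.1%, 17.4% and 65.1% of stromal cells thinned to 2000 UMIs.

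Mmp13 stood at 776, 2933, 142 and 2655 CPM, and at 154, 2303, 84.9 and 2269 CPM without each library's top cell. Ibsp stood at 639, 4168, 786 and 1993 CPM, with 69.1% of the wild type JAK2V617F UMIs in 1 cell and similar shares of cells with a UMI (26.8%, 34.7%, 37.1% and 35.6%). Wisp2, a matricellular protein of the CCN family, stood at 47.5, 521, 145 and 865 CPM, and its JAK2V617F over JAK2WT ratios were 11.0 (5.57 to 24.6) and 5.97 (4.48 to 8.07). Over the osteo-lineage list, 3 of 9 measured genes were higher and 2 lower in the wild type pair, with a median of 0.21. In the knockout pair 4 of 7 were higher and 0 lower, with a median of 1.33. Runx2, the master regulator of bone-forming cells, was among the lower genes of the wild type pair, at 290, 72.4, 150 and 126 CPM. With subcluster 3 left out it rested on 26, 14, 60 and 32 UMIs, and the wild type log2 ratio was -1.51.

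The bases just upstream of Spp1 and Mmp13 are shown because these 2 genes headed the increases named for the knockout pair. They are the 250 bases before the most upstream RefSeq start of each gene (GRCm38.p6, plus strand), 5′ to 3′, at chr5:104434861-104435110 and chr9:7272264-7272513. Capitals mark a RUNX motif (TGTGGT or its reverse complement ACCACA) or an AP-1 motif (TGACTCA or its reverse complement TGAGTCA), searched on both strands.
Spp1: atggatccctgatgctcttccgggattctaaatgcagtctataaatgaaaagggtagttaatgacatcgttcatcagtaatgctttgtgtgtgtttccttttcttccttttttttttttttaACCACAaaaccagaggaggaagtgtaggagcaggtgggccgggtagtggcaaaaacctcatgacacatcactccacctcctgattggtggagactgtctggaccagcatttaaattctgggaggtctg
Mmp13: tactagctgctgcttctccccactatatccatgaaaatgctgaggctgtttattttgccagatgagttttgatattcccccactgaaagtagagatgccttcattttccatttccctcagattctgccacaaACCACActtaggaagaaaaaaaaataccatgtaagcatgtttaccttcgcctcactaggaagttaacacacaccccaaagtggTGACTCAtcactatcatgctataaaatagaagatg
The RUNX motif begins 128 bases before the start of Spp1 and 118 before that of Mmp13, and the AP-1 motif 35 bases before that of Mmp13. Of 27025 genes in the RefSeq promoter table, 14.2% held the RUNX motif in this window and 4.43% the AP-1 motif. Of the 15 osteo-lineage genes 11 had an entry, and 4 of them (Bglap, Mmp13, Runx2 and Spp1) held the RUNX motif. A match describes letters and shows no binding.

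Enzymes and inhibitors that remodel the matrix were mostly higher with JAK2V617F in the wild type pair. Of 15 measured, 9 were higher and 0 lower, with a median log2 ratio of 1.29. In the knockout pair 6 of 17 were higher and 0 lower, with a median of 0.33. Timp1, an inhibitor of collagenases, stood at 164, 796, 95.8 and 879 CPM and Serpine2, an inhibitor of thrombin and plasminogen activators, at 977, 2547, 1277 and 4196 CPM. The secreted protease Htra1 stood at 47.5, 347, 108 and 319 CPM. All 3 were higher in each JAK2V617F library than in each JAK2WT library. The list counts include subcluster 3. Without it the wild type log2 ratios were 1.48 for Timp1, 0.73 for Serpine2 and 1.96 for Htra1, against 2.21, 1.37 and 2.64 with it. The knockout pair without subcluster 3 gave 3.38, 1.95 and 1.60.

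The other genes with the largest increases did not all move in both pairs. Col12a1, a collagen that coats fibrils, stood at 37.0, 444, 219 and 403 CPM. Smoc2, a matricellular protein, stood at 58.1, 410, 415 and 445 CPM and Cygb, the globin cytoglobin, at 58.1, 391, 231 and 161 CPM. For Smoc2 only the wild type JAK2WT library was low, and for Cygb it was the lowest, with the knockout JAK2V617F library next. Outside subcluster 3, Smoc2 had 10, 85, 169 and 125 UMIs. Subclusters 0 and 4 held 0, 0, 1 and 0 of these and subclusters 1 and 2 held 10, 42, 66 and 19. The rest lay in subcluster 5, which had 0, 3, 3 and 6 cells of the libraries. Mgp stood at 1109, 6218, 2102 and 5944 CPM and was higher with JAK2V617F in both pairs. In the knockout pair the receptor gene Adra2a had 42 UMIs with JAK2V617F and 0 with JAK2WT, and Tmem86a (log2 ratio 2.23) and the mTOR pathway inhibitor gene Ddit4l (2.01) followed Wisp2.

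Type I and III collagen genes, which helped choose the cells, are given as levels. Col1a1 stood at 1943, 1274, 594 and 1373 CPM, lower with JAK2V617F in wild type and higher in the knockout. A single cell held 289 of the 368 Col1a1 UMIs of the wild type JAK2WT library, and without each library's top cell the levels were 434, 1111, 446 and 1169 CPM, higher with JAK2V617F in both pairs. Col1a2 stood at 2048, 1761, 1309 and 1352 CPM and Col3a1 at 560, 931, 833 and 515 CPM. Without subcluster 3 the wild type pair gave log2 ratios of -1.29 for Col1a1, -0.83 for Col1a2 and 0.36 for Col3a1. With all stromal cells these were -0.61, -0.22 and 0.72. The list counts that follow include subcluster 3. Over the list of fibrillar collagens and their partners, 8 of 23 were higher and 0 lower in the wild type pair (median 0.71), and 2 of 25 were higher and 3 lower in the knockout pair (median 0.03). Without the rule genes 7 of 19 were higher and 0 lower in the wild type pair (median 0.71), and 1 of 21 was higher and 2 lower in the knockout pair (median 0.03).

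Some genes were higher with JAK2V617F in the wild type pair and lower in the knockout pair. The lipocalin Apod stood at 475, 4168, 3952 and 189 CPM, with 61% and 48% of the UMIs of its 2 high libraries in 1 cell each. Angptl1, a secreted angiopoietin-like protein, stood at 106, 323, 174 and 42.0 CPM and Meg3, a long noncoding RNA, at 52.8, 164, 219 and 21.0 CPM. The rule gene Dcn, given as a description, stood at 3168, 10038, 5914 and 2263 CPM. Of 14 fibroblast markers 5 were higher and 1 lower in the wild type pair (median 0.54), and 0 were higher and 2 lower in the knockout pair (median -0.47). Without Dcn these were 4 and 1 of 13 (median 0.52) and 0 and 1 of 13 (median -0.39). Dcn was the only marker of this list past 2-fold in opposite directions, and Sema3c was lower in both pairs (-2.09 and -1.62). Subclusters 1 and 2, which had most of the Dcn, held 9, 22, 17 and 7 of the cells. Within those subclusters Dcn stood at 13644, 20760, 19084 and 9517 CPM, and within subclusters 0 and 4 at 440, 261, 170 and 200 CPM.

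**Figure D5:**
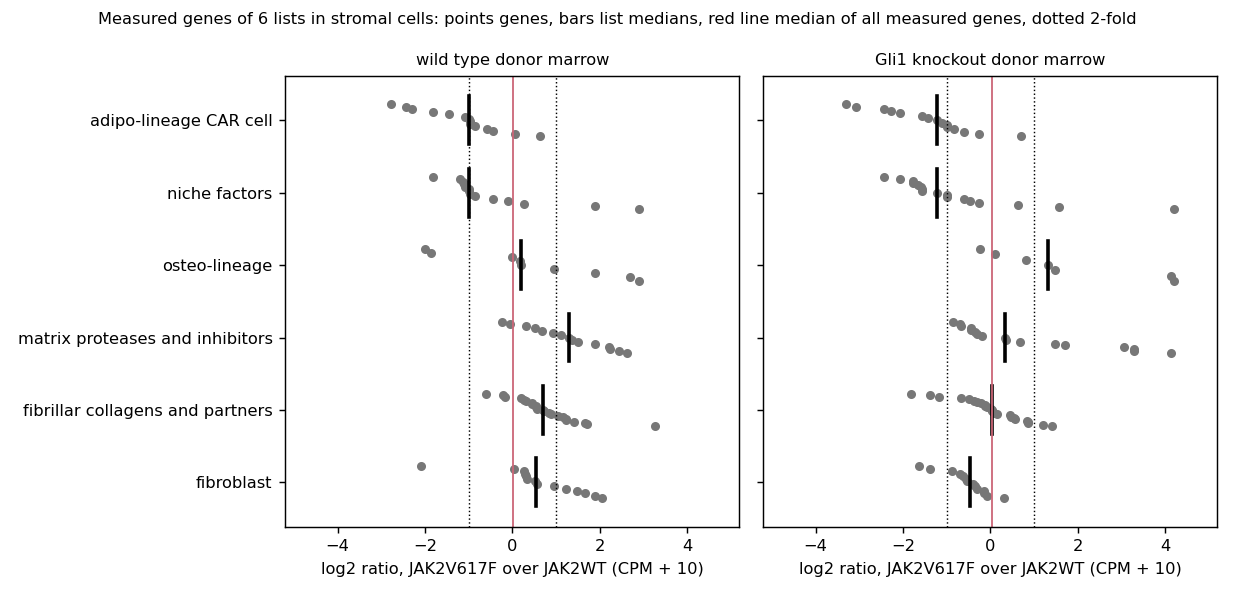
Log2 ratio of JAK2V617F over JAK2WT (CPM + 10) for every measured gene of 6 lists in the stromal cells, with wild type transplants on the left and knockout transplants on the right. Black bars are list medians, the red line is the median of all measured genes and dotted lines mark 2-fold. The CAR cell and niche factor lists lie to the left in both panels (medians -0.98 to -1.23), and the fibroblast list changes side (0.54 and -0.47). Lists and medians here include any rule genes they hold.

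Without subcluster 3 Cxcl12 stood at 7864, 2988, 12788 and 6208 CPM and Adipoq at 605, 64.7, 1297 and 169 CPM. The JAK2V617F library was again the lower of its pair for Adipoq and, as a description, for Cxcl12. The CAR list, with the rule genes Cxcl12, Lepr and Lpl included, then had 11 of 15 genes lower in the wild type pair and 9 of 15 in the knockout pair. All measured genes of that setting had median log2 ratios of 0.01 (4245 genes) and 0.05 (4386 genes). Their share at least 2-fold lower is not given here, so the 2 counts are a description.

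Some signal receptor and feedback genes were higher with JAK2V617F in the wild type pair. Of 17 measured genes of cytokine receptors, JAK and STAT proteins and SOCS inhibitors, 6 were higher and 0 lower (median 0.77). In the knockout pair 3 of 18 were higher and 1 lower (median 0.07). Socs3, a feedback inhibitor induced by STAT3, stood at 37.0, 135, 111 and 375 CPM, with ratios of 3.66 (1.56 to 9.91) and 3.39 (2.37 to 4.92). The interleukin-1 receptor gene Il1r1 stood at 52.8, 154, 101 and 294 CPM, with ratios of 2.92 in both pairs (1.40 to 6.67 and 1.99 to 4.36). Jak2 itself rested on 11, 23, 20 and 26 UMIs in the stromal cells, and the intervals of both ratios included 1.

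Inflammatory mediators were few. Of 23 on the list 8 were measured in the wild type pair, with 3 higher and 2 lower, and 13 in the knockout pair, with 4 higher and 4 lower. Cxcl14, a chemokine, was the most abundant, at 697, 1534, 2191 and 760 CPM. Il6 had 0, 2, 0 and 0 UMIs. Immediate early and stress genes were higher in the knockout pair, 8 of 17 against 0 lower (median 0.99), and had 1 higher and 1 lower of 17 in the wild type pair (median 0.08).

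Hedgehog genes were near the detection limit. Of 16 on the list only 3 or 4 were measured in each pair. Gas1, a co-receptor, stood at 248, 637, 241 and 329 CPM. Another co-receptor gene, Boc, had 1, 19, 13 and 2 UMIs. Ptch1, the receptor that is also a target of Gli1, stood at 26.4, 38.6, 66.3 and 17.5 CPM from 5, 8, 27 and 5 UMIs. The ligand genes Ihh and Dhh had no UMI, and Shh had 2, both in the knockout JAK2V617F library.

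Between genotypes under JAK2V617F, the knockout library held less RNA of some fibroblast genes. Of 4256 measured genes 5.5% were higher and 5.43% lower in the knockout, with a median log2 ratio of 0.05. Of the 14 fibroblast markers 0 were higher and 5 lower (median -0.89), or 4 of 13 without Dcn. Subclusters 1 and 2 held 22 of the wild type and 7 of the knockout cells. Within them Gsn had a log2 ratio of -0.27 and the rule gene Dcn -1.12, against -1.48 and -2.14 over all stromal cells. Of 14 CAR markers 1 was higher and 0 lower (median 0.66), a share near that of all genes. Leaving out the rule genes, 1 of 11 was higher and 0 lower (median 0.56). These comparisons share their libraries with the pairs above and are not separate evidence. Y-linked RNA was in 70.7% and 72.3% of the other cells of the knockout libraries, and in 0.0126% and 0.0281% of those of the wild type libraries. Sex-linked RNA of the blood cells thus differed along with genotype. In every comparison between genotypes the 2 cannot be told apart.

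The lowest genes of that comparison were Ifi207, an interferon-induced gene (log2 ratio -2.78), Angptl1 (-2.68), the long noncoding RNA Meg3 (-2.49), Dcn (-2.14), the lipid transporter gene Abca8a (-2.02) and Ablim1 (-1.99). The highest were Tmem86a (2.74), the interleukin-1 receptor antagonist gene Il1rn (1.64), Socs3 (1.41), Slc5a3 (1.37), Gorasp2 (1.29) and Fdx1 (1.24). Tmem86a stood at 26.4, 43.4, 66.3 and 347 CPM, so the knockout JAK2V617F library stood apart from the other 3. Il1rn stood at 58.1, 62.7, 115 and 217 CPM.

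Between genotypes with JAK2WT, the knockout library held less blood and cell cycle RNA. Of 4196 measured genes 7.89% were higher and 6.91% lower, with a median of 0.04. Of 15 CAR markers 4 were higher and 0 lower (median 0.72). Adipoq had a log2 ratio of 1.64, Apoe 1.24, Cxcl12, a rule gene, 1.09 and Esm1 1.05. Leaving out the rule genes Cxcl12, Lepr and Lpl, 3 of 12 were higher and 0 lower (median 0.78). Without subcluster 3 the log2 ratios of Adipoq, Apoe, Cxcl12 and Esm1 were 1.09, 0.65, 0.70 and 0.62. Only Adipoq stayed past 2-fold (1 of 15, median 0.43, rule genes included). Of 12 measured cell cycle genes 12 were lower (median -1.85), and 8 of 9 pan-blood genes were lower (median -1.93). These 2 lists moved with subcluster 3, which held 17 of 41 stromal cells in the wild type library and 3 of 62 in the knockout library.

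The highest genes of the JAK2WT comparison were Deptor, an mTOR inhibitor (log2 ratio 2.22), Il34, a ligand of the macrophage colony-stimulating factor receptor (2.20), the glypican gene Gpc3 (2.19), the glutamate carrier gene Slc1a3 (2.04), Tgfb1i1 (1.83) and Serpina3g (1.83). The 6 lowest named by the same limits were small in size: Runx2 (-0.91), Cirbp (-0.89), Lnpep (-0.87), S100a6 (-0.82), Nudt4 (-0.66) and Krit1 (-0.59), none of them 2-fold. Spp1 (-3.17) and Mmp13 (-2.37) were lower by more, but 1 cell held 93.3% and 81.0% of their UMIs in the wild type JAK2WT library. In the wild type JAK2WT library the highest genes rested on 3, 4, 9, 5, 4 and 12 UMIs in turn.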

How the data were processed

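The files hold unnormalised whole-number UMI counts, 1 value for each gene in each called barcode, deposited by the authors for 10x Single Cell 3' v3.1 libraries, and made with Cell Ranger 4.0.0 on mm10, per the submitters' processing notes, which name Seurat 4.0.4 without a role. The 4 hashing-tag libraries were not used here, so cells were not traced to single mice. Of 31054 features, 30934 matched GENCODE M21 (GRCm38, the assembly of mm10), the source of gene coordinates; promoters are RefSeq's. Genes keep the symbols of the files, such as Wisp2.

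The stromal cells, gene lists and motifs were chosen with earlier results of these data known. Counts of the chosen cells were summed per library and divided by their total (CPM). Log2 ratios are of CPM + 10, and ratios with an interval of CPM alone; genes counted by list or pair need at least 50 CPM in the higher library. Named by rule were the 9 rule genes, the 15 most abundant genes at least 10-fold above other cells, and per pair the 6 highest and 6 lowest log2 ratios of genes that reached 100 CPM, 30 UMIs and 25% of cells in the higher library, at most 25% of those UMIs in 1 cell and at least 2-fold the CPM of the other cells of that library. Also named were the 2 highest and 2 lowest genes of each list in a pair, list genes given for their level, Gli1, Jak2 and the sex-linked genes. Predicted, immunoglobulin, T cell receptor, haemoglobin, ribosomal, mitochondrial, Xist and Y-linked genes could not be named by size. Subclusters came from scanpy 1.11.5 (Leiden, resolution 0.8, 1000 variable genes, 15 components, 10 neighbours). Expected shares after thinning to 2000 UMIs leave out shallower cells, 7, 6, 2 and 2 of the stromal cells. The ratios and intervals were tested on simulated data with counting error only. These data had no differences between cells or mice, so the test cannot speak to either. Total counts of the cells that passed were 63270368, 55014753, 77741367 and 109796983 UMIs.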

Additional observations from a re-analysis of the deposited data

Results flagged for a closer look

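Some results went one way with JAK2V617F after wild type transplants and the other way after knockout transplants; the difference between the genotypes was not tested, since each group had 1 library. The share of stromal cells was 2.65 times as high with JAK2V617F as with JAK2WT in wild type and 0.447 times as high in the knockout. On the log2 scale, in the same order, the rule gene Dcn gave 1.66 and -1.38, Apod 3.11 and -4.31, Angptl1 1.53 and -1.83, and Meg3 1.47 and -2.88. Abca8a gave 1.01 and -1.16, the mTOR inhibitor gene Deptor 1.29 and -1.31, and Gpc3 1.60 and -1.48. Abca8a and Meg3 fell short of 2-fold in the wild type pair without subcluster 3 (0.58 and 0.97). Deptor and Gpc3 then rested on 1 and 9 UMIs in the wild type JAK2WT library. Within subclusters 1 and 2 (9, 22, 17 and 7 cells) Angptl1 gave 1.24 and -0.35. There the wild type pair gave 0.61 for Dcn, 0.56 for Meg3, 0.65 for Abca8a and 0.66 for Gpc3. Each of these 5 genes kept its direction there in both pairs. Apod had 61% and 48% of its UMIs in 1 cell in its 2 high libraries.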

How the results depend on the processing

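Alternatives changed 1 choice at a time. The 4 share ratios kept their side of 1 under 8 alternatives each; without subcluster 3, chosen after seeing the data, 2 moved by over 1.5 times, to 4.16 (JAK2V617F over JAK2WT in wild type) and 4.91 (knockout over wild type with JAK2WT). Counts of 2-fold genes depended on the limits. In the order higher and lower for the wild type pair, the knockout pair, the genotypes with JAK2V617F and the genotypes with JAK2WT, they were 479, 366, 206, 255, 234, 231, 331 and 290. They were 172, 127, 74, 87, 43, 71, 76 and 113 with 50 CPM added, 1169, 1245, 594, 703, 902, 685, 1035 and 852 with no minimum CPM, 101, 83, 45, 67, 24, 42, 56 and 65 at 200 CPM or more, and 884, 786, 514, 448, 633, 533, 550 and 464 in subclusters 0 and 4 alone, where fewer cells were summed. Single counts moved by over 1.5 times elsewhere: the higher genes of the knockout pair to 349 and those between genotypes with JAK2V617F to 425 without cells with Ptprc; the first also to 335 as a mean over cells; the second to 354 with totals free of mitochondrial, ribosomal and haemoglobin genes and to 357 without subcluster 3. With those totals the lower genes of the wild type pair came to 576 and those between genotypes with JAK2WT to 447. Directions turned in 13 of the 2689 list medians and gene ratios recomputed, 268 more moved beyond a set limit, and 2408 did neither. A turn was counted only where the main list median was at least 1.5 times or the main gene ratio at least 2-fold. Smaller values that changed sign are not among the 13. The limit was the counting interval for a gene. For a list median it was a distance typical of the intervals of its single genes, which is wide for a median. In subclusters 0 and 4 alone, where JAK2V617F against JAK2WT is nearly subcluster 4 against 0 and so checks nothing, the wild type pair gave medians of -0.053 for collagens, -0.16 for complement and 0.18 for pan-blood genes and log2 ratios of -0.73 for Dcn and -2.86 for Apod, and the knockout pair 0.22 for Dcn. There the genotypes with JAK2V617F gave -0.032 for Fdx1, 0.97 for Abca8a and 1.41 for Apod, and those with JAK2WT -0.32 for the median of matrix proteases and -0.017 for Col12a1. As a mean over cells the cell cycle median of the knockout pair was 1.08, over 3 genes, and with at least 5 rule genes Ibsp was 0.59 between genotypes with JAK2V617F. The cause was not tested. The planned run on the largest subcluster alone could not be made, because 2 libraries had 0 of its cells; subclusters 0 and 4 took its place after the data were seen. No paired analysis was possible because each group had 1 library. With 41 to 62 cells a library, a gene at 50 CPM rests on about 10 to 20 UMIs.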
